A study of Homo sapiens with 18 samples.

Results

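The SR splicing factors are a family of RNA-binding proteins, and 10 of their genes (SRSF1, SRSF2, SRSF3, SRSF4, SRSF5, SRSF6, SRSF7, SRSF9, SRSF10 and SRSF11) were followed here across all groups of the series. They were taken by gene symbol from the annotation of the array's probes, with every probe of each gene. This gave 14 of the 43961 probes and 10 of the 19782 genes that carried a symbol. SRSF10 had 3 probes, SRSF3 and SRSF5 had 2 each, and the other members had 1 each. A probe was tested when its mean over all arrays reached the median of all probe means, 5.72 log2 units. By that rule 13 of the 14 member probes were tested, among 21981 probes in all. The exception was a dim SRSF10 probe that stayed between 5.14 and 5.41 in every array.

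SR proteins bind exonic enhancer sequences through RNA recognition motifs and recruit the splicing machinery through a tail rich in arginine and serine. Kinases and phosphatases set the phosphorylation of that tail, on which import into the nucleus, release from nuclear speckles and splicing activity depend. Many SR genes also limit their own output by splicing in a poison exon, which sends the transcript to nonsense-mediated decay.

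RNA was measured on 18 single-colour Illumina bead arrays, 3 in each of 6 groups, from cells labelled HepG2, a human liver carcinoma line. The groups given doxorubicin (DOX, a DNA-damaging drug) at 400 nM for 16 hours had been transfected with si-hnRNP K, with si-PSTAR or with scramble siRNA. The same 3 transfections without the drug made up the other groups. PSTAR is a long noncoding RNA, hnRNP K is an RNA-binding protein, and the series asks how expression changes when either is knocked down. Values are log2 probe intensities on a scale that gives every array the same distribution, so a difference of 1 is a doubling of intensity. Levels of different probes cannot be compared with each other. Precision is limited by the number of arrays. The labels do not state whether a group's arrays came from different cultures, so p-values reflect a spread between arrays that could be technical.

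The array labels carry 3 cautions. HNRNPK, the target of si-hnRNP K, stood at 11.36 ± 0.22, 8.32 ± 0.14 and 11.95 ± 0.07 under DOX in arrays labelled si-hnRNP K, si-PSTAR and scramble (SD, n = 3 each), and at 11.55 ± 0.12, 8.44 ± 0.02 and 11.72 ± 0.09 without it. It was thus low in the arrays labelled si-PSTAR, against the labels, and all groups below are given as labelled. The untreated arrays labelled si-hnRNP K and scramble, 6 in all, stood apart from the other 12. Correlations across genes were at least 0.978 within the 6 and at least 0.957 within the 12, and at most 0.963 between them. Of 10 hepatocyte markers 9 were measured, and 8 of these, AFP, APOA1 and TTR among them, never passed 6.15 in any array. The exception was ALB, at 8.69, 6.93 and 6.84 under DOX in arrays labelled si-hnRNP K, si-PSTAR and scramble and at 8.60, 6.94 and 6.47 without it. The 8 others thus stayed near the median of all probe means, 5.72, against the label HepG2, and the identity of the cells was not tested. The summed hepatocyte markers (mean log2 levels of 9 genes) ran from 51.4 to 53.7 over the groups. Sums of lists with unlike numbers of genes cannot be compared with each other. The summed fibroblast markers (5 of 5 measured) ran from 33.9 to 38.4, but single markers differed more and in opposite directions. Under DOX DCN averaged 7.55, 10.06 and 8.86 in arrays labelled si-hnRNP K, si-PSTAR and scramble, and 6.46, 9.84 and 8.05 without it. COL3A1 averaged 7.44, 7.72 and 8.28 in the same order with DOX and 7.80, 7.17 and 9.23 without it. The endothelial sum (4 of 4 measured) ran from 21.8 to 24.6. Its marker CDH5 averaged 7.87, 5.44 and 7.26 in that order with DOX and 7.08, 5.35 and 6.33 without it, while PECAM1, KDR and VWF never passed 5.90. Leukocyte markers (4 of 5 measured, sums 22.7 to 23.2) stayed at or below 6.29. In bulk RNA, fewer cells of a type and less RNA per cell cannot be told apart. The part of these marker differences in the SRSF results was not tested.

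Of the 10 brightest probes, SRSF1, SRSF5 and SRSF7 carried the calls under DOX against scramble, where a call is a two-sided limma test with an adjusted p under 0.05 over all tested probes. For reference beside their values, the 250 bases before the start of each of these genes are shown, from RefSeq on GRCh38.p14, in the direction of transcription. Capitals mark the CRE core TGACGT in SRSF1 and SRSF5 and the GC box GGGCGG in SRSF7, on either strand.
SRSF7, chr2:38751495-38751744, minus strand: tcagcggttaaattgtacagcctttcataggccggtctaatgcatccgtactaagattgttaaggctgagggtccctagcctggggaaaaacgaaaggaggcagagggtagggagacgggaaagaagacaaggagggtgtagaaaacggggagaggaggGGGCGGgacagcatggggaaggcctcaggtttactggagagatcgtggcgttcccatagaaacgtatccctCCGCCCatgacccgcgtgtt
SRSF1, chr17:58007247-58007496, minus strand: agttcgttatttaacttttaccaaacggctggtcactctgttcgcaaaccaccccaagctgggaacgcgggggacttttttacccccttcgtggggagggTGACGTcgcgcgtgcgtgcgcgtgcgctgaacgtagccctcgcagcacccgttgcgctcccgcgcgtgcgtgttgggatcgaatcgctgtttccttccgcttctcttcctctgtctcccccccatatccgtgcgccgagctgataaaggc
SRSF5, chr14:69766892-69767141, plus strand: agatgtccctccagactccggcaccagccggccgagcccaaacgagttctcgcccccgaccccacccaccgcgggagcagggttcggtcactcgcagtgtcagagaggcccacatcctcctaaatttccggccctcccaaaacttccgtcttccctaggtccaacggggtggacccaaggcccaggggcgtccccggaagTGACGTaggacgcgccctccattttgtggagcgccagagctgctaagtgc
Upstream sequence was matched for 9 of the 10 members, SRSF2 being the other. Each motif named here was searched on both strands of the 250 bases, and no matches overlapped in the 3 sequences shown. TGACGT lay in 3 of the 9 (SRSF1, SRSF3 and SRSF5) and in 7.1% of 35116 promoters. GGGCGG lay in 3 of the 9 (SRSF4, SRSF6 and SRSF7) and in 42.6% of all. TATAAA, the TATA box, lay in SRSF3 and SRSF11 (10.7% of all), and CCAAT in SRSF3 (32.0% of all). G and C made up 54.8% of the SRSF7 stretch, 60.0% of that of SRSF1 and 64.8% of that of SRSF5, against a median of 58.0% over all promoters. A match describes the letters and shows no binding.

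**Figure D1:**
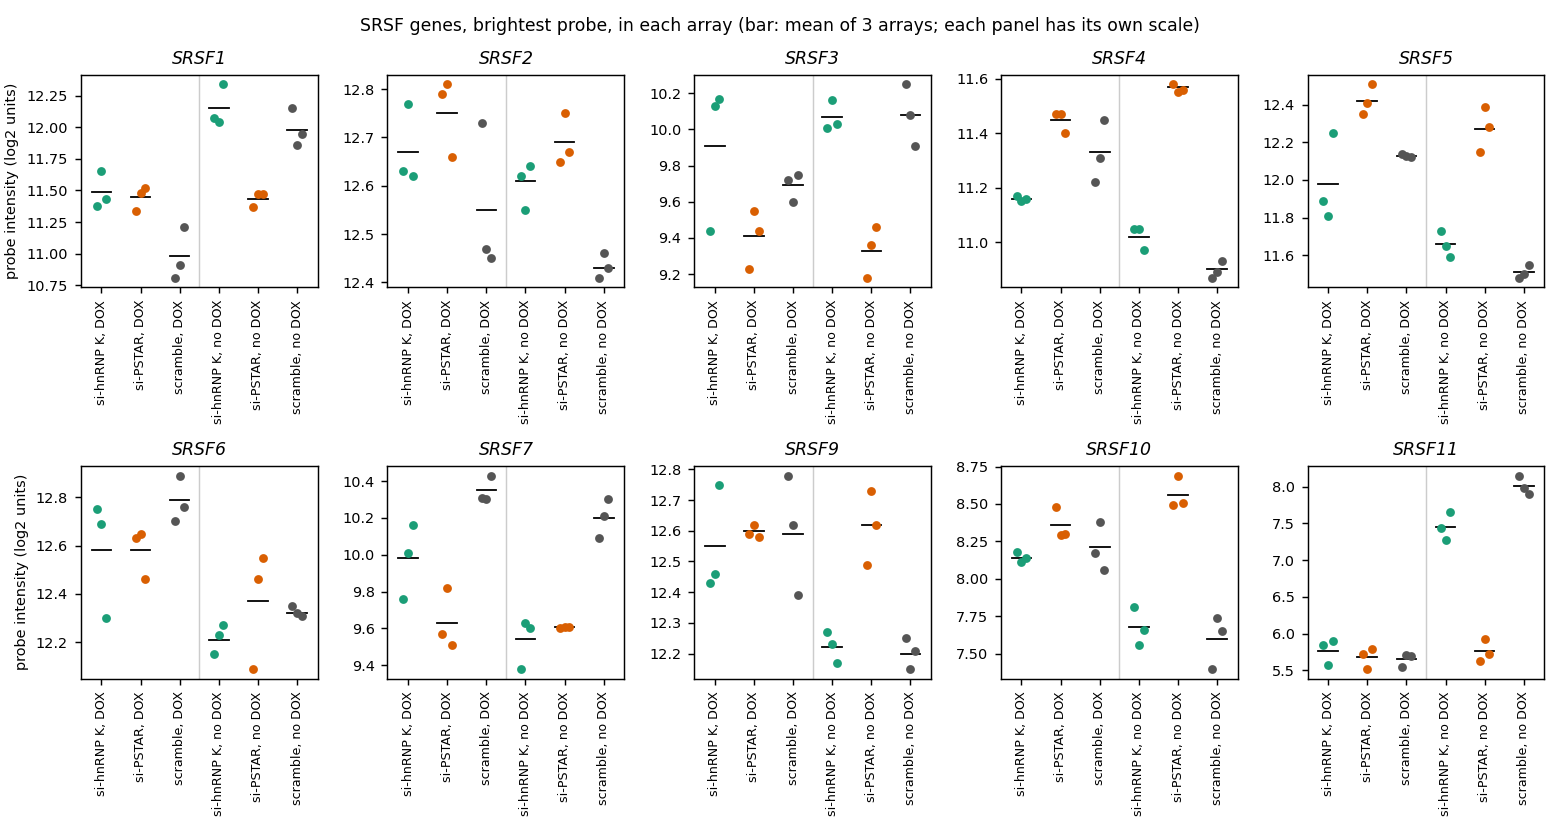
Log2 intensity of the brightest probe of each SRSF gene in each of the 18 arrays, by group, with DOX groups left of the line and untreated groups right of it; points are arrays and bars are means of 3. SRSF7 lies lowest in the arrays labelled si-PSTAR and the untreated arrays labelled si-hnRNP K, and SRSF11 is high in the 6 untreated arrays labelled si-hnRNP K and scramble.

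SRSF7, a shuttling SR protein with a zinc knuckle that also serves as an mRNA export adaptor, was lower than scramble in both siRNA groups, with and without DOX. Under DOX its probe stood at 9.57, 9.82 and 9.51 in arrays labelled si-PSTAR and at 9.76, 10.01 and 10.16 in those labelled si-hnRNP K, against 10.31, 10.30 and 10.43 in scramble. Every array of either siRNA group lay below every scramble array. The difference was -0.71 ± 0.11 for si-PSTAR (SE, 1.64-fold lower, limma adjusted p = 3.97e-06) and -0.37 ± 0.11 for si-hnRNP K (1.30-fold lower, adjusted p = 0.00691). The same 3 scramble DOX arrays served both comparisons. The si-hnRNP K difference was -0.26 (adjusted p = 0.0684) without replicate 1 of that group.

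Without DOX, SRSF7 stood at 9.38, 9.63 and 9.60 in arrays labelled si-hnRNP K and at 9.60, 9.61 and 9.61 in those labelled si-PSTAR, against 10.09, 10.21 and 10.30 in scramble. Again no array of the siRNA groups reached the scramble arrays. The untreated si-hnRNP K difference lay within the set of 6 arrays and came to -0.66 ± 0.11 (1.58-fold lower, limma adjusted p = 1.86e-05). The si-PSTAR difference, between the 6 and the 12 arrays, was -0.60 ± 0.11 (1.51-fold lower, adjusted p = 1.86e-05). SRSF7 was one of the members whose levels in the 6 arrays, 9.38 to 10.30, overlapped those in the 12, 9.51 to 10.43. DOX gave SRSF7 differences of 0.15 in scramble (adjusted p = 0.234) and 0.03 in si-PSTAR arrays (adjusted p = 0.898). In si-hnRNP K arrays, across the sets, it rose by 0.44 (adjusted p = 0.00102), or 0.19 after cyclic loess (adjusted p = 0.186). The DOX difference in si-hnRNP K arrays exceeded that in scramble by 0.29, which did not pass (adjusted p = 0.354).

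SRSF1, the founding SR protein and a splicing activator that can act as an oncogene, went the opposite way from SRSF7 under DOX. Its probe stood at 11.34, 11.48 and 11.52 in arrays labelled si-PSTAR and at 11.38, 11.65 and 11.43 in those labelled si-hnRNP K, against 10.81, 10.91 and 11.21 in scramble. Both siRNA groups lay entirely above scramble. SRSF1 was higher by 0.47 ± 0.11 in si-PSTAR arrays (1.38-fold, limma adjusted p = 0.00126) and by 0.51 ± 0.11 in si-hnRNP K arrays (1.42-fold, adjusted p = 0.000718). The siRNA groups themselves differed by 0.04 (si-hnRNP K minus si-PSTAR, adjusted p = 0.824).

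Without DOX, SRSF1 read 12.07, 12.04 and 12.34 in arrays labelled si-hnRNP K, against 12.15, 11.86 and 11.95 in scramble. These groups overlapped and the difference of 0.17 did not pass (limma adjusted p = 0.31). SRSF1 fell by 1.01 with DOX in scramble (2.01-fold, adjusted p = 1.57e-08). In si-hnRNP K arrays it fell by 0.67 with DOX (1.59-fold, adjusted p = 1.51e-05), and these 2 differences were not shown to be unequal (0.34, adjusted p = 0.286). Untreated si-PSTAR arrays, at 11.37, 11.47 and 11.47, lay below untreated scramble by 0.55 (-0.55, adjusted p = 0.000105). With DOX those arrays changed by 0.01 (adjusted p = 0.96). The DOX differences in scramble and si-hnRNP K arrays and the untreated si-PSTAR difference set the 6 arrays against the 12, so group and set cannot be told apart in them.

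SRSF5, a splicing activator first found as an insulin-induced gene in rat liver cells, was read by 2 probes. Under DOX the brighter stood at 12.35, 12.41 and 12.51 in arrays labelled si-PSTAR, against 12.14, 12.13 and 12.12 in scramble. The second stood at 11.62, 11.73 and 11.74, against 11.28, 11.26 and 11.32. On both probes the si-PSTAR arrays lay entirely above scramble, by 0.29 ± 0.10 (limma adjusted p = 0.0238) and by 0.41 ± 0.11 (adjusted p = 0.00284). The call on the brighter probe was lost without scramble DOX replicate 2 (0.29, adjusted p = 0.0544) or 3 (0.28, 0.0557), without si-PSTAR DOX replicate 3 (0.25, 0.0989) and in a fit of the 12 arrays alone (0.29, 0.0537).

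In arrays labelled si-hnRNP K the brighter SRSF5 probe read 11.89, 11.81 and 12.25 with DOX, and its difference from scramble was -0.15 (limma adjusted p = 0.283). Against si-PSTAR arrays under DOX it was lower by 0.44 (-0.44, adjusted p = 0.000949), with no overlap. On the second probe that difference was -0.30 (adjusted p = 0.0259), a call lost without replicate 2 or 3 of si-PSTAR (-0.29 and -0.28, adjusted p = 0.0735 and 0.0784) or replicate 1 or 2 of si-hnRNP K (-0.20 and -0.31, adjusted p = 0.179 and 0.0501).

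Across all 10 genes, 3 passed in arrays labelled si-PSTAR under DOX against scramble, SRSF1 and SRSF5 higher and SRSF7 lower, where 43.9% of 12483 genes passed on their brightest probe (21.6% higher and 22.2% lower). Their median difference was 0.07, beside 0.01 over all genes. By probe, 5 of 13 passed, beside 38.5% of all probes. SRSF2 and SRSF3 missed the threshold at 0.20 and -0.29 (limma adjusted p = 0.0808 and 0.111), and SRSF2 passed without scramble DOX replicate 1 (0.29, adjusted p = 0.0171) or with a trended prior (0.20, 0.0417), SRSF3 in a fit of the arrays compared alone (-0.29, 0.0397). SRSF4, SRSF6, SRSF9, SRSF11 and the brighter SRSF10 probe differed by 0.12, -0.20, 0.00, 0.03 and 0.15.

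In arrays labelled si-hnRNP K under DOX, 2 of the 10 passed against scramble, SRSF1 higher and SRSF7 lower, beside 38.0% of all genes (19.0% in each direction). The members' median was -0.06, beside -0.01 over all genes. SRSF3, the smallest SR protein and another export adaptor, read 9.44, 10.13 and 10.17 there, against 9.72, 9.60 and 9.75 in scramble. Replicate 1 lay below scramble and the other 2 above it, and the difference of 0.22 did not pass (limma adjusted p = 0.253). The second SRSF3 probe differed by -0.15 (adjusted p = 0.286). Without replicate 1 the brighter SRSF3 probe was higher by 0.46 (adjusted p = 0.0039). Likewise, the brighter SRSF5 probe passed at -0.28 without si-hnRNP K replicate 3 (adjusted p = 0.0282).

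Set directly against each other under DOX, arrays labelled si-hnRNP K differed from those labelled si-PSTAR in 4 members, beside 41.9% of all genes. SRSF3 was higher by 0.50 and SRSF7 by 0.34, and SRSF4 and SRSF5 were lower by 0.28 and 0.44 (-0.28 and -0.44, limma adjusted p = 0.00501, 0.0117, 0.00777 and 0.000949). The second, dim SRSF3 probe did not share that difference, at -0.08 (adjusted p = 0.598). SRSF4, an SR protein with a long arginine-serine tail, read 11.17, 11.15 and 11.16 in si-hnRNP K arrays, against 11.47, 11.47 and 11.40 in si-PSTAR arrays. These groups were tight and did not overlap, whereas those of SRSF3 and SRSF7 did overlap. SRSF3 and SRSF7 no longer passed without si-hnRNP K replicate 3 (0.37 and 0.25, adjusted p = 0.0563 and 0.0929), nor SRSF7 without si-PSTAR replicate 3 (0.28, adjusted p = 0.0712). The count was 2 without that si-hnRNP K replicate, beside 32.6% of all probes. With every array the share of all probes, rather than of genes, was 36.7%.

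Without DOX, 2 of the 10 passed in arrays labelled si-hnRNP K against scramble, SRSF7 and SRSF11, both lower, beside 31.9% of all genes (15.7% lower). The members' median was 0.05, beside 0.00 over all genes. SRSF11, an SR-related factor linked to spliceosome assembly and alternative exons, read 7.43, 7.28 and 7.65 in si-hnRNP K arrays, against 8.15, 7.98 and 7.90 in scramble. The groups did not overlap and SRSF11 was lower by 0.56 ± 0.11 (-0.56, 1.47-fold, limma adjusted p = 0.00039). The remaining 8 members differed by -0.11 to 0.17 on their brightest probes.

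In arrays labelled si-PSTAR, none of the 10 passed between DOX and no drug (limma), beside 16.0% of all genes, and 0 had an unadjusted p under 0.05. Their differences ran from -0.21 to 0.22 with a median of 0.02, equal to that of all genes. On the second SRSF5 probe the arrays read 11.62, 11.73 and 11.74 with DOX, against 11.30, 11.51 and 11.56 without it, a difference of 0.24 (unadjusted p = 0.033, adjusted p = 0.138). Those groups did not overlap on that probe. The comparison lies within the 12 arrays.

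**Figure D2:**
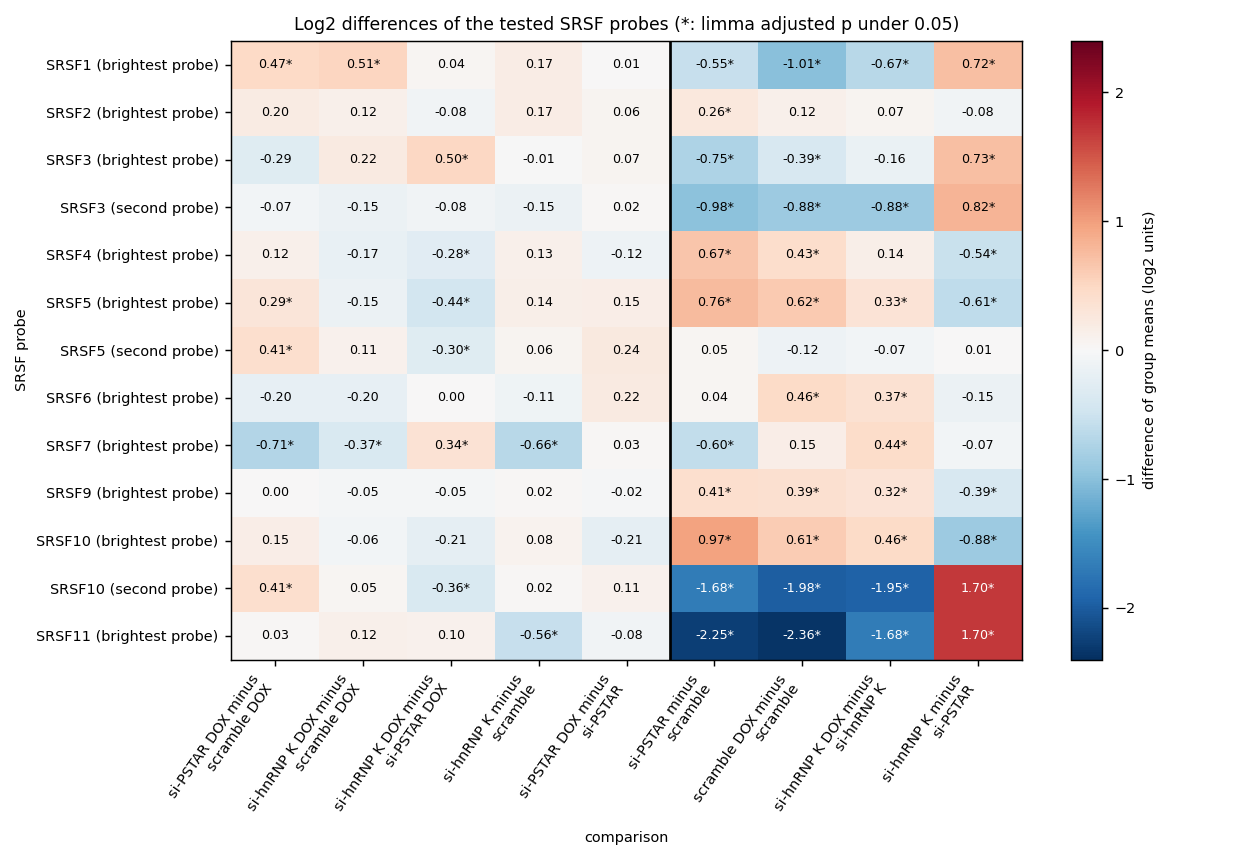
Log2 differences of group means for the 13 tested SRSF probes (rows) in 9 comparisons (columns), first-named group minus second; left of the line both groups lie in 1 set of arrays, right of it in different sets, and an asterisk marks a limma adjusted p under 0.05. SRSF7 is negative in the si-PSTAR and si-hnRNP K columns against scramble, and the 2 SRSF10 probes have opposite signs in all 4 columns right of the line.

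The comparisons between the sets of 6 and 12 arrays gave larger counts. DOX against no drug in scramble changed 8 members, SRSF4, SRSF5, SRSF6, SRSF9 and SRSF10 higher and SRSF1, SRSF3 and SRSF11 lower, beside 64.5% of all genes (49.7% higher, 14.7% lower). Untreated si-PSTAR against untreated scramble arrays differed in 9, with SRSF2, SRSF4, SRSF5, SRSF9 and SRSF10 higher and SRSF1, SRSF3, SRSF7 and SRSF11 lower, beside 65.9% (43.4% higher, 22.5% lower). DOX in si-hnRNP K arrays changed 7, SRSF5, SRSF6, SRSF7, SRSF9 and SRSF10 higher and SRSF1 and SRSF11 lower, beside 57.8% (44.8% higher, 13.0% lower). Untreated si-hnRNP K against untreated si-PSTAR arrays differed in 7, SRSF1, SRSF3 and SRSF11 higher and SRSF4, SRSF5, SRSF9 and SRSF10 lower, beside 66.1% (22.8% higher, 43.4% lower). The comparisons share groups of arrays, so their counts are not separate evidence. The median of all genes in them was 0.24, 0.17, 0.21 and -0.17, and the members' medians were 0.27, 0.15, 0.23 and -0.12.

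These counts depended on the scaling. After cyclic loess the medians of all genes became 0.05, 0.00, 0.05 and -0.01. The share of called genes that were higher was 50.8%, 45.4%, 49.6% and 53.8%, instead of 77.1%, 65.8%, 77.5% and 34.4%. Of 12483 genes, 2761 then passed as higher and 2670 as lower with DOX in scramble. The counts were 3379 and 4063 for untreated si-PSTAR against scramble and 2251 and 2289 with DOX in si-hnRNP K arrays. For untreated si-hnRNP K against si-PSTAR they were 3974 and 3413. With DOX in scramble 2 members then passed as higher and 3 as lower, and SRSF4, SRSF6 and SRSF9 were lost (0.19, 0.26 and 0.19, limma adjusted p = 0.0699, 0.0618 and 0.136). For untreated si-PSTAR against scramble 3 passed as higher and 4 as lower, without SRSF2 and SRSF9 (0.07 and 0.22, adjusted p = 0.549 and 0.0723). With DOX in si-hnRNP K arrays 0 passed as higher and 3 as lower, and SRSF5, SRSF6, SRSF7, SRSF9 and SRSF10 were lost (0.13, 0.18, 0.19, 0.14 and 0.21). SRSF3, at -0.16 in the values as deposited, was called there at -0.41 (adjusted p = 0.0251). For untreated si-hnRNP K against si-PSTAR 3 passed in each direction, without SRSF9 (-0.22, adjusted p = 0.0748). Leaving out single arrays also ended some calls. SRSF3 with DOX in scramble was lost without untreated scramble replicate 1 (-0.30, adjusted p = 0.101) or scramble DOX replicate 2 (-0.34, 0.0675). SRSF2 between untreated si-PSTAR and scramble was lost without si-PSTAR replicate 2 (0.22, 0.0578). In si-hnRNP K arrays with DOX, SRSF5 and SRSF9 were lost without DOX replicate 3 (0.19 and 0.22, 0.0962 and 0.0909) and SRSF6 without DOX replicate 1 (0.28, 0.0663).

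SRSF11 did not overlap between the sets. The 12 arrays lay between 5.52 and 5.93, whereas untreated si-hnRNP K arrays read 7.28 to 7.65 and untreated scramble 8.15, 7.98 and 7.90. The levels of the 12 lie around the median of all probe means, 5.72, so differences may be limited by background and no fold is given. A probe had to reach that median to be tested, and SRSF11 clearly exceeded it only in the untreated si-hnRNP K and scramble arrays. The mean was 5.65 ± 0.09 with DOX in scramble, against 8.01 ± 0.13 without it (-2.36 ± 0.11, limma adjusted p = 3.47e-16). It was 5.77 ± 0.17 with DOX in si-hnRNP K arrays, against 7.45 ± 0.19 without it (-1.68 ± 0.11, adjusted p = 8.52e-13). In untreated si-PSTAR arrays it was 5.76 ± 0.15 (-2.25 ± 0.11 against untreated scramble, adjusted p = 9.38e-16). The DOX difference itself was compared between siRNA groups as well. It differed from that in scramble for 6 of 10 members in si-PSTAR arrays, beside 52.3% of all genes (14.0% higher, 38.3% lower), and for SRSF11 alone in si-hnRNP K arrays, beside 3.28% of all genes (2.12% higher, 1.15% lower; limma). The SRSF11 difference was 0.68 (adjusted p = 0.0147) and no longer passed without untreated scramble replicate 1 (0.61, 0.0549), untreated si-hnRNP K replicate 2 (0.59, 0.054) or si-hnRNP K DOX replicate 3 (0.62, 0.0521), which left 0 members called.

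SRSF10, which turns into a general splicing repressor when it loses its phosphates after heat shock, gave opposite readings on its 2 tested probes. On the brighter probe the scramble arrays read 8.17, 8.38 and 8.06 with DOX, against 7.40, 7.74 and 7.65 without it. On the second they read 5.86, 5.96 and 5.89, against 7.85, 8.05 and 7.76. Neither probe's groups overlapped, and the probes moved apart. The brighter rose by 0.61 ± 0.10 (1.52-fold, limma adjusted p = 1.66e-05) and the second fell by 1.98 (3.96-fold, adjusted p = 5.21e-14). In untreated si-PSTAR against untreated scramble arrays they differed by 0.97 and -1.68 (adjusted p = 6.85e-09 and 1.58e-12). With DOX in si-hnRNP K arrays they differed by 0.46 and -1.95 (adjusted p = 0.000546 and 1.07e-13), and in untreated si-hnRNP K against si-PSTAR arrays by -0.88 and 1.70 (adjusted p = 3.44e-08 and 1.24e-12). The second probe's levels in the 12 arrays, 5.76 to 6.46, come close to the median of all probe means, so these falls may be understated. After cyclic loess the brighter probe was not called with DOX in si-hnRNP K arrays (0.21, adjusted p = 0.127).

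Within a set of arrays the SRSF10 probes did not diverge in this way. Under DOX, si-PSTAR minus scramble gave 0.15 on the brighter probe (limma adjusted p = 0.287) and 0.41 on the second (adjusted p = 0.0071). The second probe read 6.04, 6.46 and 6.44 in si-PSTAR arrays, against 5.86, 5.96 and 5.89, with no overlap, and the call was lost without si-PSTAR DOX replicate 2 (0.34, adjusted p = 0.0507). For untreated si-hnRNP K minus scramble the probes gave 0.08 and 0.02, and for DOX in si-PSTAR arrays -0.21 and 0.11, none of them called. Under DOX, si-hnRNP K minus si-PSTAR gave -0.21 (adjusted p = 0.116) and -0.36 (adjusted p = 0.0195). The second probe's call was lost without si-PSTAR replicate 2 or 3 (-0.28 and -0.29, adjusted p = 0.107 and 0.0947) or si-hnRNP K replicate 1 (-0.26, 0.129). Pearson's r between the 2 probes was 0.442 over the 12 arrays and 0.393 over the 6, as a description.

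**Figure D3:**
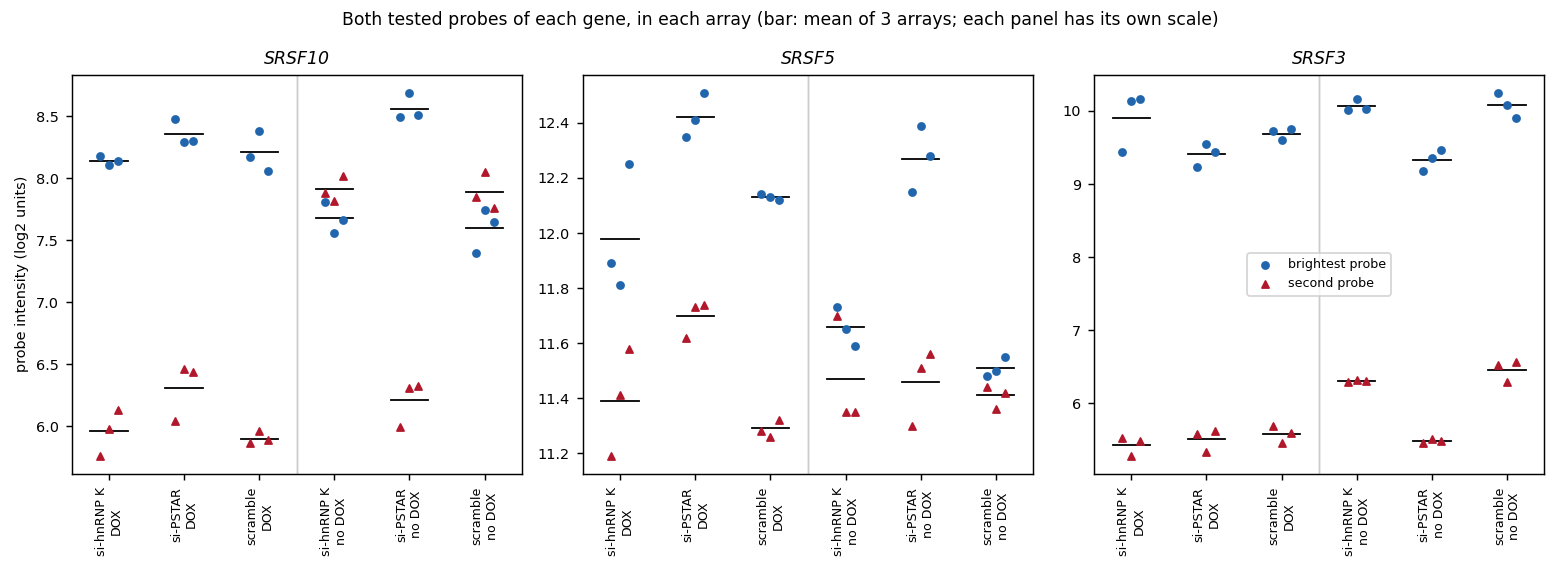
Log2 intensity of both tested probes of SRSF10, SRSF5 and SRSF3 in each array, by group (circles, brightest probe; triangles, second probe; bars, means of 3 arrays), with DOX groups left of each line; heights of the 2 probes are not comparable. In the 12 arrays the second SRSF10 probe reads 5.76 to 6.46 and the brightest 8.06 to 8.69, against 7.76 to 8.05 and 7.40 to 7.81 in the 6 untreated arrays labelled si-hnRNP K and scramble.

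The probes of SRSF5 and SRSF3 were compared in the same way. The brighter SRSF5 probe was higher by 0.62 with DOX in scramble and by 0.76 in untreated si-PSTAR against scramble arrays (limma adjusted p = 7.23e-06 and 2.24e-07). The second SRSF5 probe gave -0.12 and 0.05 there (adjusted p = 0.339 and 0.694). After cyclic loess it passed as lower with DOX in scramble (-0.36, adjusted p = 0.0079) and in si-hnRNP K arrays (-0.29, adjusted p = 0.0347). Both SRSF3 probes were lower with DOX in scramble, by 0.39 and 0.88 (-0.39 and -0.88, adjusted p = 0.0179 and 2.55e-08). They were also lower in untreated si-PSTAR against scramble arrays, at -0.75 and -0.98 (adjusted p = 3.63e-05 and 2.45e-09). The second SRSF3 probe read 5.28 to 5.69 in the 12 arrays and 6.29 to 6.56 in the 6, so no fold is given for it. Within a set the SRSF3 probes did not vary together. Pearson's r between them was -0.283 over the 12 arrays and 0.005 over the 6, as a description. For the SRSF5 probes r was 0.778 and 0.607.

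Over the series, 3314 genes had 2 tested probes, and opposite calls were frequent in the comparisons between the sets. Of the genes with both probes called, 31.9% were called in opposite directions for DOX in scramble, 31.1% for untreated si-PSTAR against scramble, 32.8% for DOX in si-hnRNP K arrays and 30.6% for untreated si-hnRNP K against si-PSTAR. Within a set the share ran from 2.03% to 8.16%. As a share of all 3314 genes the opposite calls made up 15.4%, 16.5%, 12.7% and 16.0% in the 4 comparisons between the sets. Within a set they made up 2.08% and 0.905% for si-PSTAR and si-hnRNP K against scramble under DOX, 2.17% for si-hnRNP K against si-PSTAR under DOX, 0.392% for untreated si-hnRNP K against scramble and 0.151% for DOX in si-PSTAR arrays. SRSF10 is thus 1 of many genes with this pattern. Which transcripts each probe detects was not analysed here, and the cause was not tested.

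**Figure D4:**
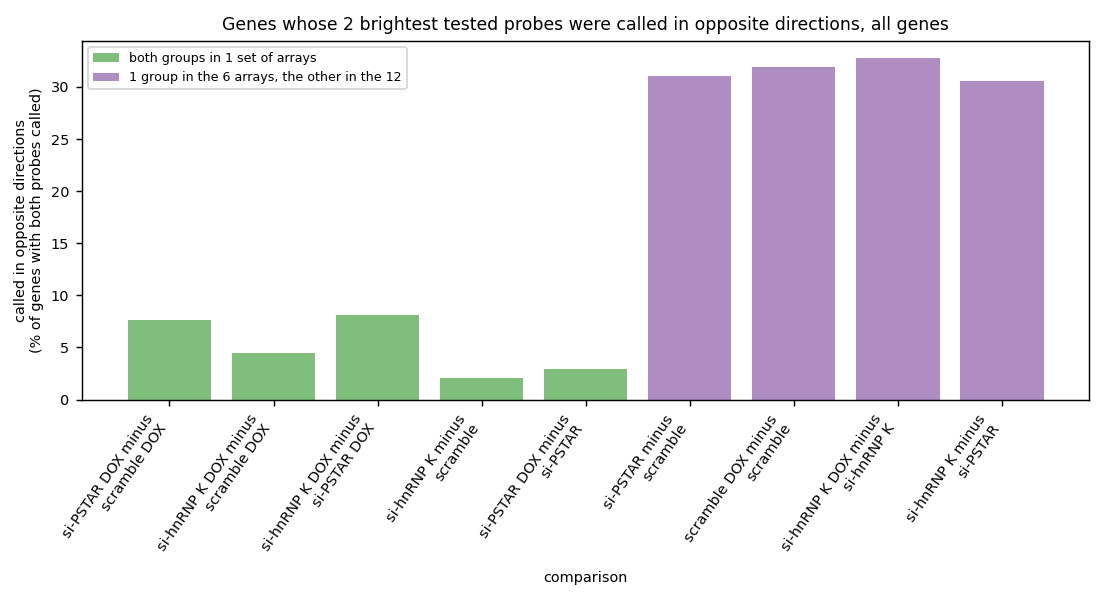
Percent of genes with 2 called probes whose probes were called in opposite directions, per comparison, as bars from 0, for comparisons within 1 set of arrays and between the sets. The comparisons within a set lie between 2.03% and 8.16%, those between the sets between 30.6% and 32.8%.

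Of the 13 tested member probes, 4 were higher in all 6 of the untreated scramble and si-hnRNP K arrays than in any of the 12 and 4 were lower, beside 12.9% and 12.5% of all tested probes (25.4% together). The higher ones were SRSF1, SRSF11 and the second probes of SRSF3 and SRSF10. The lower ones were SRSF4, SRSF9 and the brighter probes of SRSF5 and SRSF10. SRSF9, an SR protein close in sequence to SRSF1, read 12.15 to 12.27 in the 6 and 12.39 to 12.78 in the 12. SRSF2, SRSF6, SRSF7, the brighter SRSF3 probe and the second SRSF5 probe overlapped between the sets. The brighter SRSF3 probe read 9.91 to 10.25 in the 6 and 9.18 to 10.17 in the 12. SRSF2, a speckle-resident SR protein, had the narrowest range, of the 10 members, with group means from 12.43 to 12.75, and adjacent groups in that order overlapped. It passed in untreated si-PSTAR against scramble arrays alone among the 9 two-group comparisons (0.26, limma adjusted p = 0.0152). SRSF6, which shares a pair of RNA recognition motifs with SRSF4 and SRSF5, was higher with DOX in scramble by 0.46 (adjusted p = 0.00115), with group means from 12.21 to 12.79. Within the sets SRSF6 differed by at most 0.22 in size and was not called.

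Other genes of the SR pathway were counted on their brightest probes, under DOX for arrays labelled si-PSTAR against scramble first. Of 27 SR-related splicing proteins 14 were higher and 1 lower, beside 21.6% and 22.2% of all genes, with a median of 0.27 beside 0.01. ZRANB2, a zinc finger splicing factor, rose by 0.85 and RNPS1, which joins splicing to the exon junction complex, by 0.56 (limma adjusted p = 1.46e-05 and 2.31e-05). U2AF1, the small subunit of the factor that binds the end of an intron, fell by 0.63 (-0.63, adjusted p = 4.88e-06). After cyclic loess the list had 13 higher and 1 lower. Of 10 tested factors of nonsense-mediated decay 7 were higher and 0 lower, with a median of 0.33. SMG5, which helps recycle the helicase UPF1, rose by 0.98, CASC3, an exon junction protein, by 0.41 and SMG8, a partner of the kinase SMG1, by 0.38 (adjusted p = 8.48e-08, 0.00227 and 0.00229).

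Among 12 kinases and phosphatases of SR proteins in that comparison 3 were higher and 2 lower. PPP1CC, a catalytic subunit of protein phosphatase 1, rose by 0.76, CLK1, a nuclear kinase of SR proteins, by 0.60 and DYRK1A by 0.50 (limma adjusted p = 2.83e-05, 3.08e-05 and 0.00051). Of 5 genes of nuclear import and export 4 were higher and 0 lower, with DDX39B, an export helicase, up by 0.45, TNPO3, the importer of SR proteins, by 0.33 and TNPO1 by 0.33 (adjusted p = 0.00151, 0.00745 and 0.0091). Of 3 further SR family genes, SRSF8 and TRA2B each rose by 0.62 and TRA2A fell by 0.46 (-0.46, adjusted p = 1.1e-05, 1.4e-05 and 0.002).

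Under DOX in arrays labelled si-hnRNP K against scramble, the SR-related proteins gave 3 higher and 5 lower of 27, beside 19.0% of all genes in each direction. ZRANB2 rose by 0.71, U2AF1 by 0.39 and RNPS1 by 0.39 (limma adjusted p = 0.0002, 0.00182 and 0.00195). After cyclic loess 3 were higher and 2 lower. U2AF1 thus went opposite ways in the 2 siRNA groups, and directly it was higher in si-hnRNP K than in si-PSTAR arrays by 1.02 (adjusted p = 1.42e-09). In that direct comparison 2 of the 27 were higher and 13 lower, beside 21.7% and 20.2% of all genes, with RBM39 at -0.69 and LUC7L at -0.63 (adjusted p = 1.12e-06 and 1.29e-05). The kinases and phosphatases gave 5 higher and 2 lower of 12 against scramble, with PPP1CC up by 0.70, DYRK1B at -0.52 and PPP1CA at -0.48 (adjusted p = 0.000111, 0.000381 and 0.00175). The decay factors gave 4 higher and 1 lower of 10, with SMG5 up by 0.83, SMG9 by 0.62 and MAGOH by 0.44 (adjusted p = 1.63e-06, 3.27e-06 and 0.00113). TNPO3 and NXT1 rose by 0.54 and 0.27 (adjusted p = 5.86e-05 and 0.0315), as did TRA2B and SRSF8 by 0.46 and 0.44 (0.00064 and 0.000797), and TRA2A changed by -0.41 (0.00715).

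Without DOX in arrays labelled si-hnRNP K against scramble, 2 of the 27 SR-related proteins were higher and 3 lower, beside 16.2% and 15.7% of all genes. SREK1 changed by -0.67, RNPS1 by 0.61 and BCLAF1 by -0.51 (limma adjusted p = 6.42e-06, 1.44e-05 and 0.000654). The kinases and phosphatases gave 3 higher and 0 lower of 12. These were SRPK1, a cytoplasmic kinase that primes SR proteins for import, up by 0.60, and the phosphatases PPM1G and PPP1CB, up by 0.32 and 0.41 (adjusted p = 0.00228, 0.0199 and 0.0209). Decay factors gave 5 higher and 1 lower of 10, led by SMG5, SMG9 and UPF1 at 0.66, 0.51 and 0.55 (adjusted p = 5.23e-05, 5.92e-05 and 0.000265). Of 5 genes of nuclear import and export 2 were higher and 0 lower, TNPO3 by 0.68 and DDX39B by 0.33 (limma adjusted p = 3.6e-06 and 0.0249). None of SRSF8, TRA2A and TRA2B passed in this limma fit. With DOX in si-PSTAR arrays 9.09% of all genes were higher and 6.9% lower. The lists gave 3 higher and 0 lower kinases and phosphatases of 12, and 2 higher and 1 lower SR-related proteins of 27. Decay factors gave 2 higher and 0 lower of 10. Genes of nuclear import and export gave 0 higher and 1 lower of 5, TNPO3 at -0.29 (limma adjusted p = 0.0399).

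Between the sets, the SR-related list gave 8 higher and 11 lower of 27 with DOX in scramble, beside 49.7% and 14.7% of all genes, and 1 higher and 15 lower after cyclic loess. SREK1, ZRANB2 and PNN changed by -2.35, -1.80 and -1.50 (limma adjusted p = 1.94e-17, 9.68e-12 and 2.87e-10). In si-hnRNP K arrays DOX gave 7 higher and 9 lower, or 1 and 14 after loess. TRA2B, a close relative of the SR family that activates exons, changed by -2.37 with DOX in scramble, by -1.75 with DOX in si-hnRNP K arrays and by -1.95 in untreated si-PSTAR against scramble arrays (adjusted p = 1.98e-17, 2.31e-14 and 1.36e-15). Group and set cannot be told apart in these values either.

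For each member the pair of genes with the most similar profile over the 18 arrays was listed, by Pearson's r between brightest probes. The values ran from 0.877 to 0.991 and describe arrays that share the division into 6 and 12, with no test. SRSF11 was matched by MYBL1 and FAM162A (0.991 each), SRSF10 by BRMS1 and AKAP10 (0.974 and 0.967), SRSF1 by SUCLG2 and NCL (0.962 and 0.959) and SRSF7 by APPBP2 and OLFML1 (0.946 and 0.941). SRSF2, whose arrays varied least by group, had the weakest matches, ZNF629 and ZFC3H1 at 0.892 and 0.877.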

How the data were processed

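The deposited table holds log2 intensities, quantile normalized by the authors before deposit as read from the values (99.9955% of ranks differed by under 0.01 between arrays, with a median of 5.73). The software and any background correction were not stated in the sources used. Values were used as deposited. All columns were used and no 2 were identical. Of the probes, 29511 had 1 symbol, 0 several and 14450 none; 29474 matched RefSeq identifiers. The labels' protocol names more than 1 exposure time; the sample labels' 16 hours was followed.

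Group means were fitted to all 18 arrays with limma 3.58.1 (R 4.3.3; 12 residual degrees of freedom), with Benjamini-Hochberg adjustment over 21981 probes. A gene was counted on its brightest probe. On simulated data for si-PSTAR against scramble under DOX, with 21981 probes, 100 of 100 changes of 1 log2 unit and 62 of 100 of 0.5 were called, with 6 false among 168 calls. No other probes were changed there, whereas 38.5% of probes passed in the real comparison. The simulated recovery therefore does not give that of the real data. With 3 arrays a group, the smallest p of an exact permutation test is 0.1, so the model's p-values were used.

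Members, lists and tests were chosen with earlier results of these data known. Named were all members, HNRNPK, genes from among the 3 called with the smallest p per list and comparison, and 2 profile matches per member. Not every such list gene is given, and some comparisons name few or none. The fit of 12 arrays was chosen after seeing the data. Alternatives were cyclic loess, centring, filters, probe averaging, smaller fits, a replicate block, array weights, a trended prior, and fits without each array. The PSTAR transcript is not analysed here. Figures used matplotlib 3.10.9.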

Additional observations from a re-analysis of the deposited data

Results flagged for a closer look

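The difference that DOX made was itself compared between arrays labelled si-PSTAR and scramble, and 6 of 10 SRSF genes passed on the brightest probe (limma), beside 52.3% of all genes (14.0% higher, 38.3% lower). The DOX difference in si-PSTAR arrays minus that in scramble was 2.28 for SRSF11 (adjusted p = 2.56e-12), 2.09 for the second SRSF10 probe (4.63e-11) and 1.02 for SRSF1 (6.29e-06). For the second SRSF3 and SRSF5 probes it was 0.90 (7.39e-06) and 0.36 (0.048). It was -0.41 for SRSF9 (0.0204), -0.47 for the brighter SRSF5 probe (0.00735), -0.55 for SRSF4 (0.000328) and -0.82 for the brighter SRSF10 probe (5.45e-05). A positive value does not mean a larger DOX change in si-PSTAR arrays, where 0 of the 13 tested member probes were called with DOX. DOX changed SRSF11 by -0.08 there and by -2.36 in scramble, SRSF1 by 0.01 and -1.01, and the brighter SRSF10 probe by -0.21 and 0.61. In this contrast the brighter SRSF3 probe just missed the threshold at 0.46 (0.0525). It passed after cyclic loess (0.74, 0.00471), with the 70th-percentile filter (0.0446), in a fit of the arrays compared (0.0215), with a replicate block (0.0433), a trended prior (0.0491) or array weights (0.44, 0.048), and without untreated scramble replicate 3 (0.55, 0.0313), untreated si-PSTAR replicate 3 (0.53, 0.0361) or si-PSTAR DOX replicate 1 (0.55, 0.0286). Of the 4 groups in this contrast only untreated scramble lay in the set of 6 arrays, so group and set cannot be told apart. Of all genes called, 26.7% were higher, or 56.5% after cyclic loess. There 3 members passed as higher and 2 as lower, beside 2308 and 1775 of 12483 genes. The SRSF9 and brighter SRSF5 calls were lost there (-0.23 and -0.27, adjusted p = 0.246 and 0.155). SRSF9 was also lost without scramble DOX replicate 1 (-0.32, adjusted p = 0.0761) or untreated si-PSTAR replicate 2 (-0.35, adjusted p = 0.0574). The second SRSF5 call was lost under most single-array omissions, with adjusted p up to 0.121 without untreated si-PSTAR replicate 1 (0.28).

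The same contrast for arrays labelled si-hnRNP K passed for 1 of 10 genes, SRSF11 at 0.68 (limma adjusted p = 0.0147), beside 3.28% of all genes (64.8% of those higher, 76.5% after loess). SRSF11 stood at 5.77 with DOX and 7.45 without it in si-hnRNP K arrays, and at 5.65 and 8.01 in scramble, and the DOX levels lie around the median of all probes. The call was lost without untreated scramble replicate 1 (0.61, adjusted p = 0.0549), untreated si-hnRNP K replicate 2 (0.59, 0.054) or si-hnRNP K DOX replicate 3 (0.62, 0.0521).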

How the results depend on the processing

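Centring on the 75th percentile could change almost nothing, since every array already has the same distribution. The fit on 1 probe per gene and the 12-array and trended fits keep the group means, so they can alter calls but not a sign. The weighted fit reversed no called SRSF difference. Averaging all probes of SRSF10 reversed its brighter-probe differences, which became -0.26 for untreated si-PSTAR against scramble, -0.48 for DOX in scramble, -0.49 for DOX in si-hnRNP K arrays, 0.28 for untreated si-hnRNP K against si-PSTAR and 0.44 for the si-PSTAR contrast of DOX differences. Averaging also called SRSF3 for DOX in si-hnRNP K arrays (-0.52, limma adjusted p = 3.74e-05) and in the si-PSTAR contrast (0.68, 0.000102). It ended the SRSF5 calls in the same 2 comparisons (0.13 and -0.05, 0.238 and 0.732). Under DOX against scramble it called SRSF2 in si-PSTAR arrays (0.20, 0.0366) and SRSF4 in si-hnRNP K arrays (-0.17, 0.0447). Cyclic loess gave 5 member genes instead of 8 for DOX in scramble and 3 instead of 7 for DOX in si-hnRNP K arrays. The share of all probes called became 42.8% instead of 60.7% and 36.3% instead of 53.5%. Cyclic loess also gave 2251 higher and 2289 lower genes instead of 5592 and 1619 for DOX in si-hnRNP K arrays, and 2308 and 1775 instead of 1742 and 4785 for the si-PSTAR contrast. A filter at the 70th percentile left SRSF11 untested and gave 1 instead of 2 for untreated si-hnRNP K against scramble and 0 instead of 1 for the si-hnRNP K contrast. The probes called there rose to 42.4% from 27.2% and to 6.0% from 3.59%. Leaving out single arrays gave 2 to 4 genes for si-PSTAR against scramble under DOX, 2 to 3 for si-hnRNP K, 2 to 4 between them, and 0 to 1 for the si-hnRNP K contrast. It gave 8 to 9 and 2 for the untreated si-PSTAR and si-hnRNP K groups against scramble, 7 to 8 between those groups, 7 to 8, 0 and 5 to 7 for DOX in scramble, si-PSTAR and si-hnRNP K arrays, and 5 to 7 for the si-PSTAR contrast. With a replicate block the counts were 3, 2 and 4 under DOX, 9, 2 and 7 without it, 8, 0 and 7 for DOX in scramble, si-PSTAR and si-hnRNP K arrays, and 7 (instead of 6, SRSF3 added at 0.0433, second SRSF5 probe lost at 0.0523) and 1 for the contrasts. Of all probes the block fit called 38.5%, 33.0% and 36.7% under DOX and 64.0%, 27.1% and 63.9% without it, in the same order. For DOX in scramble, si-PSTAR and si-hnRNP K arrays it called 60.7%, 14.3% and 53.6%, and for the contrasts 51.0% and 3.64%. Same-numbered arrays deviated together at r of -0.162 to 0.107 over 21 pairs of arrays, so pairing by number was not shown. Without detection p-values, dim levels bound what can be seen for SRSF11 and the second SRSF3 and SRSF10 probes.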
